A study of Mus musculus with 69 samples.

Results

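The genes described here are 47 genes for cytosolic ribosomal proteins of the mouse, 30 of the large 60S subunit and 17 of the small 40S subunit, taken from a list of names fixed for this work and found among 21887 protein-coding genes. A gene was read through the peaks within 5 kb of its body on mm10 in 18 peak lists, 8 for H3K27ac and 10 for H3K4me1. RefSeq promoter entries gave a start site and a strand for 39 of the 47, and the 8 others (Rpl3, Rpl7, Rpl8, Rpl30, Rpl32, Rplp1, Rps14 and Rps20) were read only through the window around the gene. The members lie on 18 chromosomes and are short, from 982 bases (Rps27) to 9647 bases (Rpl22), with a median of 3269 bases.

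Haematopoietic stem (HSC) and progenitor (HPC) cells of mice were sorted, fixed and assayed by ChIPmentation, in which antibody-bound chromatin is tagged with the Tn5 transposase. The genotypes were wild type, heterozygous (Kmt2c f/+; Vav-Cre) and knockout (Kmt2c f/f; Vav-Cre). Vav-Cre is a transgene active in blood-forming cells, so the allele was deleted from early in the blood lineage and not at the time of treatment, and how complete the deletion was cannot be read from peak lists. Kmt2c encodes MLL3, a histone methyltransferase that deposits H3K4me1.

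Untreated mice of 8 weeks gave H3K4me1 lists for wild-type, heterozygous and knockout HSCs and for the same 3 genotypes of HPCs, with 3 libraries in each group. Mice of 16 weeks gave HSC lists of both marks for wild type and knockout, after either 3 doses of 5-fluorouracil (5FU, 150 mg/kg, 3 weeks apart), a drug that kills dividing cells, or the PBS vehicle on the same schedule. These H3K27ac groups had 3 libraries each and the H3K4me1 groups 3 to 6. Mice of 8 to 10 weeks gave HPC lists of H3K27ac for wild type and knockout, with 4 libraries each, after 3 days of interleukin-1 (IL-1, 0.5 microgram per day) or PBS. Sort markers are not stated in the labels used here.

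Each group had a single pooled list, so the spread between libraries is unknown, no test between groups was possible, and values from 2 groups compare their lists. The H3K27ac lists held 37002 to 67143 peaks covering 33.4 to 45.9 Mb, and the H3K4me1 lists 76274 to 134509 peaks covering 44.2 to 116 Mb. Of 8 HSC marker genes, 8 had an H3K27ac peak within 5 kb in each HSC list and 6 or 7 in each HPC list. Their covered bases were 99969 to 132998 in the HSC lists and 47394 to 60148 in the HPC lists. Of 6 granulocyte and monocyte progenitor markers, 4 or 5 had a peak in the HSC lists and 5 or 6 in the HPC lists. These markers were covered over 7636 to 16888 bases in the HSC lists and 15024 to 27814 bases in the HPC lists, ranges that overlap. The wild-type 5FU list of H3K4me1 stood apart. It is labelled as a combination of 6 libraries whose titles carry 2 different prefixes, 3 libraries each. Of its peaks 28.1% had a −log10 q of at least 5, against 0.635% to 1.04% in the other H3K4me1 lists of that age. The H3K4me1 lists of 8 weeks had 57.1% to 80.3% of peaks past that value and covered 86.1 to 113 Mb. By covered length (116 Mb) the wild-type 5FU list was nearer to those than to the others of its age (44.2 to 54.0 Mb).

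Cytosolic ribosomal proteins form, with the ribosomal RNAs, the machine that translates messenger RNA, and each is needed in nearly equal amount. Their genes are transcribed at a high rate in almost every cell from short promoters that mostly lack a TATA box, and many of their messenger RNAs begin with a C followed by a run of pyrimidines, the 5′ terminal oligopyrimidine (TOP) tract through which mTOR signalling controls translation. At an active promoter H3K27ac lies on the nucleosomes around the start, while H3K4me1 is usually low at the start itself and rises on its flanks. Loss of dose of a few of these proteins, such as Rps19, Rps14, Rpl5 or Rpl11, impairs red cell formation.

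The starts below are shown because they belong to genes named in the results. They run 5′ to 3′ on the gene's strand from 60 bases before the RefSeq start (GRCm38.p6) to 20 bases from it onwards, and capitals mark a pyrimidine run that opens at the listed start with C and has at least 4 more pyrimidines. The first 5 have such a run and the last 3 have none at the listed start.
Rpl14: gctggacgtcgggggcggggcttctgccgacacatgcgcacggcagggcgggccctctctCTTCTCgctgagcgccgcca
Rpl15: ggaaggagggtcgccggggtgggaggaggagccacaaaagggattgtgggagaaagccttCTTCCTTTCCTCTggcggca
Rpl35: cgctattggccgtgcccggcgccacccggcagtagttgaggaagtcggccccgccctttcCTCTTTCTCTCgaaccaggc
Rps6: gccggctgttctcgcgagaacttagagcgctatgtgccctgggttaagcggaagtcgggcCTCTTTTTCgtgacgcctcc
Rps27: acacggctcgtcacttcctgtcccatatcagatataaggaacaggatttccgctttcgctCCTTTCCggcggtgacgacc
Rps23: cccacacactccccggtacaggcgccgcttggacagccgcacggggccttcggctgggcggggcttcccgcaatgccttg
Rps3: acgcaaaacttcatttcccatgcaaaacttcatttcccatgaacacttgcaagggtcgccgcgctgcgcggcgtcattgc
Rpl18: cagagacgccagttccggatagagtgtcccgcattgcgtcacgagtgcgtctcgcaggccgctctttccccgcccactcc
The stretches lie at chr9:120571457-120571536 (plus strand, Rpl14), chr14:18270967-18271046 (minus, Rpl15), chr2:39005112-39005191 (minus, Rpl35), chr4:86857348-86857427 (minus, Rps6), chr3:90213629-90213708 (minus, Rps27), chr13:90923062-90923141 (plus, Rps23), chr7:99483690-99483769 (minus, Rps3) and chr7:45718011-45718090 (plus, Rpl18).

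The run at the listed start was found in 8 of 39 members (20.5%) and in 380 of 17492 genes with an entry (2.17%). Listed starts can be some bases off, and a run opening within 5 bases of the start was found in 17 members (43.6%) and in 18.7% of all genes. Over the 300 bases of an entry the members held a median of 21.0 CpG dinucleotides, against 13.0 over all genes, and the lowest and highest members held 8 and 35. The letters TATAAA, searched on both strands, were in 2 of 39 members (5.13%) and in 13.3% of all entries. The ETS-family core CCGGAAG, also on both strands, was in 13 members (33.3%) and in 11.9% of all entries, and the YY1 core CCATNTT in 10 members (25.6%) and in 15.5% of entries. The SP1 GC box GGGCGG was in 20 members (51.3%) and in 46.3% of entries, so the members were close to all genes there. Always marked genes were not searched on their own. A match to these letters is a description and not a binding site.

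H3K27ac was present at these genes throughout. All 47 members had an H3K27ac peak within 5 kb of the gene in all 8 lists, as did 52.2% of protein-coding genes. All 39 members with a start had an H3K27ac region touching the 500 bases on either side of it in all 8 lists, as did 7063 of 17492 genes (40.4%), called always marked genes here. The members are among those 7063. A region is a set of overlapping or touching peaks, and 36 to 39 of the 39 members had a single region at the start.

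The strongest peaks at these starts ranked high among all peaks of their lists. The same rank was not computed for always marked genes, so it does not set the members apart from them. Ranked by −log10 p within its own list, the strongest peak at a member's start stood at a median percentile between 91.8 (knockout HPC, IL-1) and 96.5 (wild-type and knockout HSC, 5FU), and the lowest member in any list stood at percentile 73.2. The authors' fold enrichment of that peak had a median over members of 9.67 to 11.1 in the HSC lists and 12.0 to 16.9 in the HPC lists. Rps27, a zinc-finger protein of the 40S platform, had a fold enrichment of 25.3 in wild-type HSCs given PBS and 30.2 in wild-type HPCs given PBS. Rpl35, a protein at the exit of the tunnel for the growing chain, stood near the low end with 6.20 and 7.89 in the same lists.

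The H3K27ac region was placed over the start and the first kilobase of the gene. The start base itself was covered in 38 or 39 of 39 members in every list, against 78.3% to 97.0% of always marked genes. The median reach was 642 to 812 bases upstream and 1013 to 1282 bases downstream of the start, where always marked genes reached 641 to 827 bases upstream and 791 to 1039 bases downstream. Between 29 and 33 members reached farther downstream than upstream in each list, against 61.2% to 67.5% of always marked genes. At 1000 bases downstream 56.4% of members were covered in wild-type HSCs given PBS and 79.5% in wild-type HPCs given PBS, and the corresponding shares of always marked genes were 38.5% and 48.3%.

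**Figure D1:**
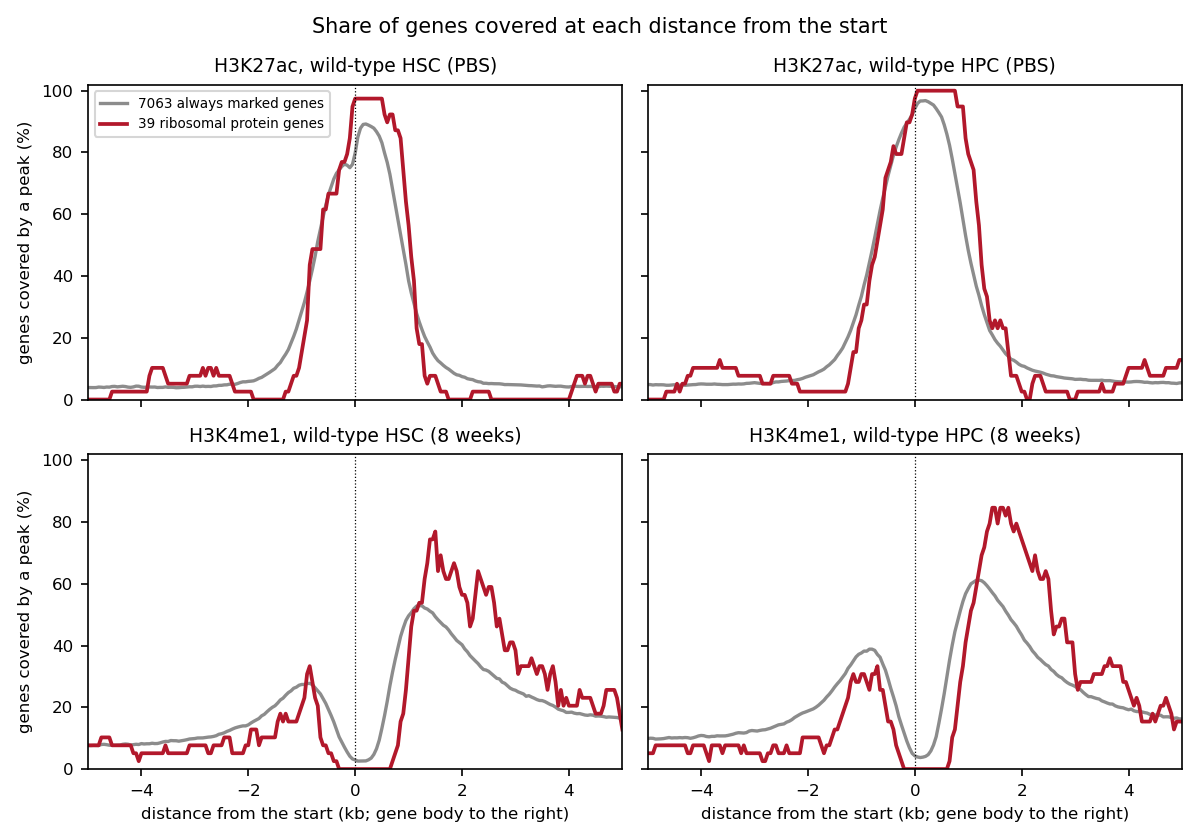
Share of genes (%, vertical axis) covered by a peak at each distance from the start (kb, horizontal axis, gene body to the right) for the 39 members (red) and 7063 always marked genes (grey), for H3K27ac above and H3K4me1 below in wild-type HSCs (left) and HPCs (right). H3K27ac fills the start and the first kilobase, H3K4me1 leaves the start free, and its highest share over members lies 1450 to 1500 bases downstream (76.9% in HSCs and 84.6% in HPCs).

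The width of the region differed more between members than between lists. Median widths over the 39 members in the HSC lists were 1509 bases (wild type, PBS), 1753 (knockout, PBS), 1815 (wild type, 5FU) and 1721 (knockout, 5FU). In the HPC lists they were 1997 (wild type, PBS), 2107 (knockout, PBS), 2029 (wild type, IL-1) and 1923 (knockout, IL-1). The widest list was a median of 1.12 times the narrowest for a member within HSCs and 1.13 times within HPCs, against 1.296 and 1.219 times for always marked genes. The order of the members was largely kept, with Spearman's rho between any 2 of the 8 lists from 0.57 to 0.90 over 39 members, which share their libraries within a list.

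The 3 widest regions by the median over 8 lists were those of Rpl18, Rpl4 and Rps27, and the 3 narrowest were those of Rpl6, Rps24 and Rpl5. Rpl4, which lines the exit tunnel, was 2354, 2401, 2239 and 2478 bases wide in the HSC lists (wild type and knockout with PBS, then wild type and knockout with 5FU). Its HPC widths were 2450, 2647, 2449 and 2549 bases (wild type and knockout with PBS, then with IL-1), so all 8 values were close. Rpl6 was at the other end with 1011, 987, 954 and 960 bases in HSCs and 1313, 1574, 1158 and 1176 bases in HPCs.

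Rpl18 had the largest contrast in width between the 2 cell types. Its region measured 2002, 2074, 1989 and 2040 bases in the HSC lists and 5111, 5067, 5119 and 4815 bases in the HPC lists. The added length lay upstream: the region reached 851 to 871 bases upstream of the start in HSCs and 3647 to 3824 bases in HPCs, while the downstream reach was 1137 to 1202 and 1167 to 1449 bases. The start of Sphk2, a sphingosine kinase gene on the opposite strand, lies 69 bases upstream, so the added stretch covers the Sphk2 side of the shared promoter. Over the Rpl18 gene and 5 kb on either side, the HSC lists covered 3098 to 3511 bases in 3 to 5 peaks. The HPC lists covered 4815 to 5625 bases there in 1 or 2 peaks, so the contrast was smaller over that window.

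Across the members, 20 of 39 had all 4 HPC widths above all 4 HSC widths and 1 (Rpl34) had all 4 below, where the shares of always marked genes were 44.7% above and 4.19% below. The members' count is close to that background. The median ratio of a member's HPC width to its HSC width was 1.18, against 1.21 for always marked genes, with a range from 0.839 (Rpl13) to 2.52 (Rpl18). The HPC and HSC mice differed in age and treatment schedule, so these and the cell type cannot be told apart.

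Ordered by role, the 5S particle proteins Rpl5 and Rpl11, which bind Mdm2 when ribosome assembly fails, had narrow to middling regions. Rpl11 measured 1426, 794, 1270 and 1299 bases in the HSC lists and 1576 to 1735 bases in HPCs, and Rpl5 1009 to 1252 bases in HSCs and 1232 to 1376 in HPCs. The stalk base protein Rplp0 was narrow in 3 of the 4 HSC lists, with 691, 705, 1309 and 660 bases, and measured 1314 to 1383 bases in HPCs. Rpl12, its neighbour in the stalk, measured 1073 to 1746 bases in HSCs and 2260 to 2622 in HPCs.

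At the tunnel exit, Rpl19 was 1601 to 2019 bases wide over the 8 lists, Rpl26 1260 to 2060 and Rpl35 953 to 1788. Among the 40S head proteins Rps16 (1931 to 2578 bases), Rps18 (1902 to 2503), Rps3 (1581 to 2234), Rps19 (1828 to 2734) and Rps25 (1897 to 2195) had wide regions and Rps15 (1304 to 1885) a narrower one. Among the 40S body proteins Rps6, the S6 kinase substrate, and Rps7 varied little, from 1802 to 1928 and from 1965 to 2160 bases. Rps23, a decoding-centre protein, was narrower in HSCs (999 to 1099 bases) than in HPCs (1601 to 1706 bases). Over all members with a start the median width in wild-type HSCs given PBS was 1479.5 bases for 24 genes of the 60S subunit and 1845 bases for 15 of the 40S subunit, and in wild-type HPCs given PBS 1884.5 and 2105 bases.

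**Figure D2:**
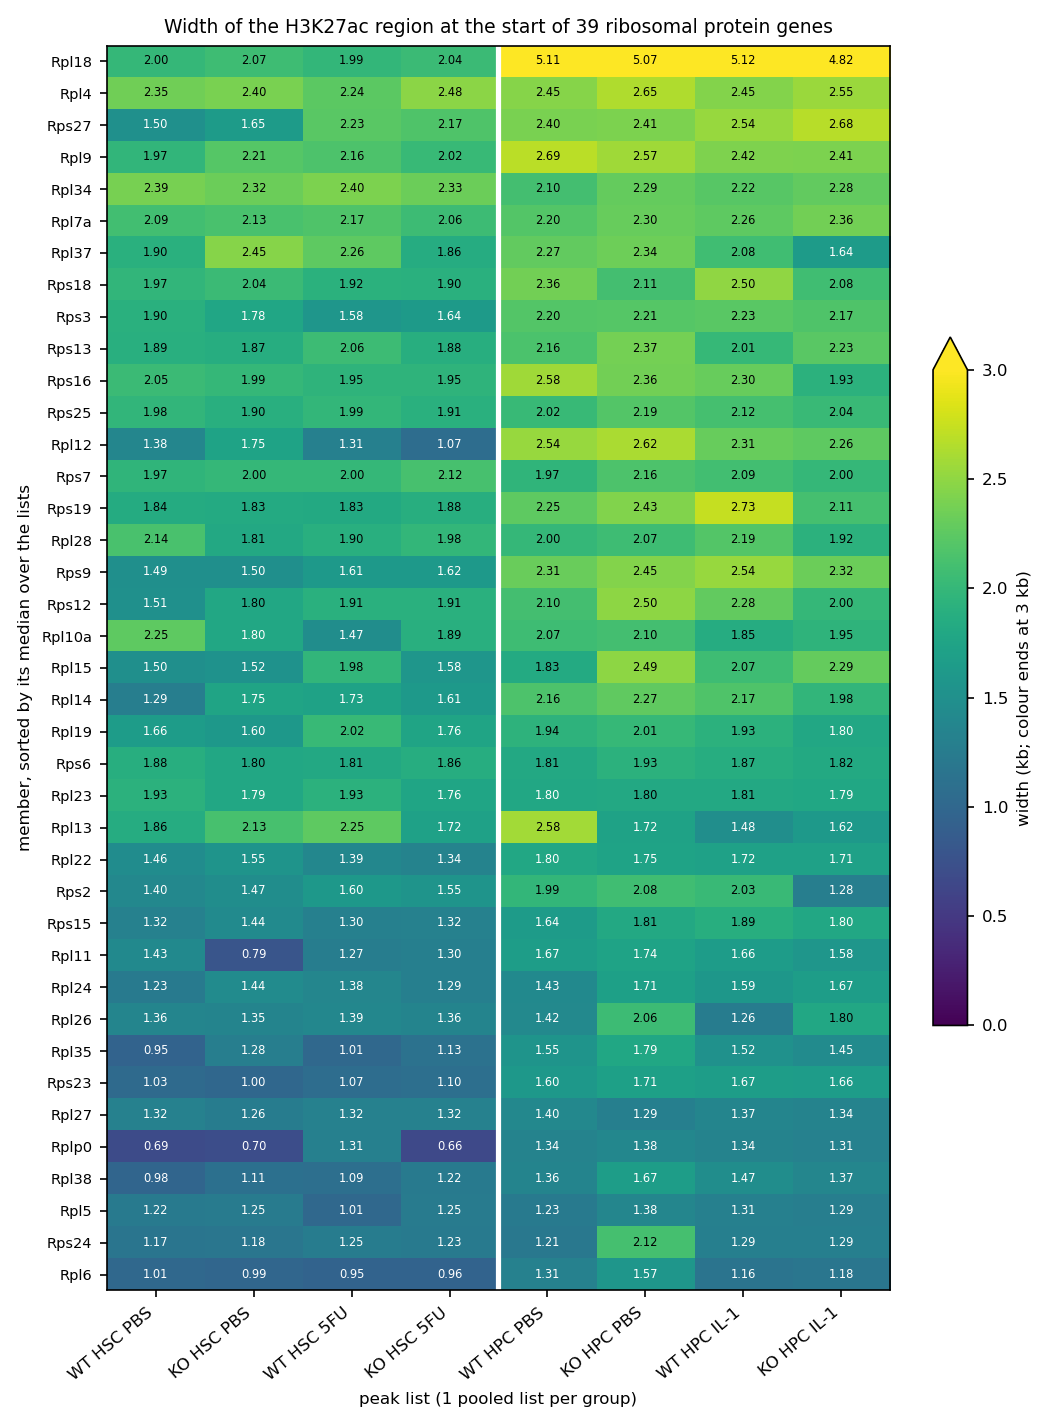
Width of the H3K27ac region at the start (kb, colour and printed value) for 39 members (rows, sorted by their median) in 8 pooled lists (columns, HSC left and HPC right of the white line). Colour ends at 3 kb, and the 4 HPC values of Rpl18, 4815 to 5119 bases, lie beyond it.

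Few of these widths differed by 1.5-fold between the lists of different genotypes or treatments. Over 8 comparisons and 312 member values, 11 (3.53%) differed by at least 1.5-fold, in 7 members, where 13.4% of all gene values did. All genes with a region in both lists include many with weak peaks, and the part of peak strength in that gap was not tested.

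In HSCs given PBS, 23 of 39 members were wider in the knockout, with a median log2 ratio of 0.03 against −0.06 over 7830 genes, and 33 lay above that gene median. No member was at least 1.5-fold wider (4.05% of genes were) and 1 was at least 1.5-fold narrower (13.0% of genes were). That member was Rpl11, at 1426 bases in the wild type and 794 in the knockout. The largest gains were smaller: Rpl14 went from 1287 to 1753 bases.

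After 5FU, 19 of 39 members were wider in the knockout (median log2 ratio −0.01, −0.09 over 7829 genes, 28 members above the gene median). The count at 1.5-fold was again 0 wider (2.96% of genes) and 1 narrower (16.8% of genes), here Rplp0 with 1309 bases in the wild type and 660 in the knockout. By this measure Rplp0 was thus wide only in the wild-type 5FU list among the 4 HSC lists. It also gave the 1 member at least 1.5-fold wider after 5FU in the wild type (691 to 1309 bases, 7.7% of genes). Over the window of the gene, however, H3K27ac covered 2313 bases after PBS and 1746 after 5FU in the wild type. The knockout 5FU list covered 1542 bases there.

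The other values of 5FU against PBS were small. In the wild type 23 of 39 members were wider (median log2 ratio 0.02, gene median 0.02). The 1 member at least 1.5-fold narrower was Rpl10a, from 2254 to 1469 bases (6.02% of genes). The window of Rpl10a, though, had 2382 covered bases in 2 peaks after PBS and 2886 in 5 peaks after 5FU. In the knockout 21 of 39 were wider (median 0.005, gene median 0.00). There Rpl11 was wider after 5FU, from 794 to 1299 bases (1 member, 7.22% of genes), and Rpl12 narrower, from 1746 to 1073 bases (1 member, 9.29% of genes).

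HPCs showed the same small scale. With PBS, 32 of 39 members were wider in the knockout, but the gene median moved as well (log2 0.11, members 0.07) and 15 members lay above it. Rps24, a 40S body protein, was the 1 member at least 1.5-fold wider, from 1206 to 2116 bases (8.99% of genes), and none was at least 1.5-fold narrower (2.42% of genes). Rpl13 came next to that limit with 2582 and 1723 bases, although its window had 2582 and 3139 covered bases. Rpl26 was wider in the knockout under both treatments, with 1417 and 2060 bases after PBS and 1260 and 1803 bases after IL-1.

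After IL-1, 12 of 39 members were wider in the knockout (median log2 ratio −0.03, gene median −0.03, 18 members above it). None was at least 1.5-fold wider (2.39% of genes) and Rps2, which lies at the messenger RNA entry site, was narrower (1 member, 6.52% of genes) with 2029 and 1284 bases. IL-1 against PBS left the wild type nearly level, with 23 of 39 members wider and a median log2 ratio of 0.02 (gene median 0.01). There the region at the start of Rpl13 went from 2582 to 1481 bases (1 member narrower, 3.48% of genes), and none was at least 1.5-fold wider (5.0% of genes). The window of Rpl13, however, had 2582 covered bases in 1 peak after PBS and 2668 in 4 peaks after IL-1.

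In knockout HPCs 3 of 39 members were wider after IL-1 than after PBS, with a median log2 ratio of −0.09 against −0.14 over 8206 genes, so 26 members lay above the gene median. Rps24 (2116 to 1294 bases) and Rps2 (2085 to 1284 bases) were the 2 members at least 1.5-fold narrower (10.7% of genes), and none was wider by that much (1.33% of genes). For Rps24 the knockout PBS list was the one that differed: the other 7 H3K27ac lists gave 1171 to 1294 bases.

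H3K4me1 lay beside the starts and mostly inside the genes. The flank measured here is the number of H3K4me1-covered bases from 500 to 5000 bases on either side of the start. Its median over the 39 members in wild-type HSCs of 8 weeks was 249 bases upstream and 1786 bases downstream, and in wild-type HPCs 298 and 1905 bases. Always marked genes had 287 and 1110 bases in those HSCs and 492 and 1260 bases in those HPCs.

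The downstream side was the longer in most members. In each of the 10 lists 34 to 36 of 39 members had more covered bases downstream than upstream, against 64.8% to 75.8% of always marked genes, and in 29 members this held in all 10 lists (43.9% of always marked genes). Of the members' covered flank bases, 77.2% to 85.4% lay downstream, against 64.7% to 72.2% for always marked genes. Between 71.9% and 80.5% of the downstream bases were inside the gene, and the others were past its end. The highest share of covered members was at 1350 to 1550 bases downstream in all 10 lists, from 56.4% (knockout HSC, 16 weeks, PBS) to 89.7% (wild-type HSC, 5FU).

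The start itself was free of H3K4me1. The start base was covered in 0 of 39 members in all 10 lists, but also in only 1.12% to 4.29% of always marked genes, so the members were not set apart by it. The nearest H3K4me1 base downstream lay at a median of 895 to 1220 bases from the start, farther than the 725 to 1036 bases of always marked genes. In 205 of 390 pairs of a member and a list the start lay in a gap between 2 covered flanks. By list this was 10 to 27 of 39 members, against 32.8% to 64.7% of always marked genes, so it was common there too. In the other pairs an upstream flank within 5 kb was mostly missing. The gaps had a median length of 1545 to 3008 bases, against 1425.5 to 2083 bases in always marked genes.

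No base from 500 to 5000 bases upstream was covered in any of the 10 lists in 7 members: Rpl5, Rpl6, Rpl11, Rpl27, Rpl38, Rps15 and Rps23. Of these, Rps15 had H3K4me1 nearer to the start, 220 bases upstream in heterozygous HSCs and 192 bases upstream in knockout HPCs. In 6 members some were covered in all 10: Rpl7a, Rpl12, Rpl18, Rpl19, Rpl35 and Rps24. The matching shares of always marked genes over all 10 lists are not given here. In single lists 12 to 29 of 39 members had no upstream base, against 30.5% to 59.3% of always marked genes. Rpl18 was the 1 member with more upstream than downstream bases in all 10 lists, for example 2537 upstream and 573 downstream in wild-type HSCs and 3144 and 964 in wild-type HPCs. Rpl35 had 2072 and 1928 bases in the same HSCs and 2565 and 1905 in the same HPCs.

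Upstream flanks were longer where another gene starts upstream on the other strand. The 9 members with such a start within 5 kb (Rpl7a, Rpl9, Rpl12, Rpl18, Rpl19, Rpl28, Rps2, Rps18 and Rps27) had a median of 448 upstream bases in wild-type HSCs of 8 weeks, and all 9 had some. The 30 others had a median of 0, and 14 of them had some. In wild-type HPCs the medians were 679 and 0 bases. Downstream medians of these members and the others were 1918 and 1722.5 bases in wild-type HSCs of 8 weeks. Other lists differed in either direction, with 1561 and 1995 bases in heterozygous HSCs and 1311 and 993 in knockout HSCs given PBS. Only genes with a promoter entry were searched for an upstream start.

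**Figure D3:**
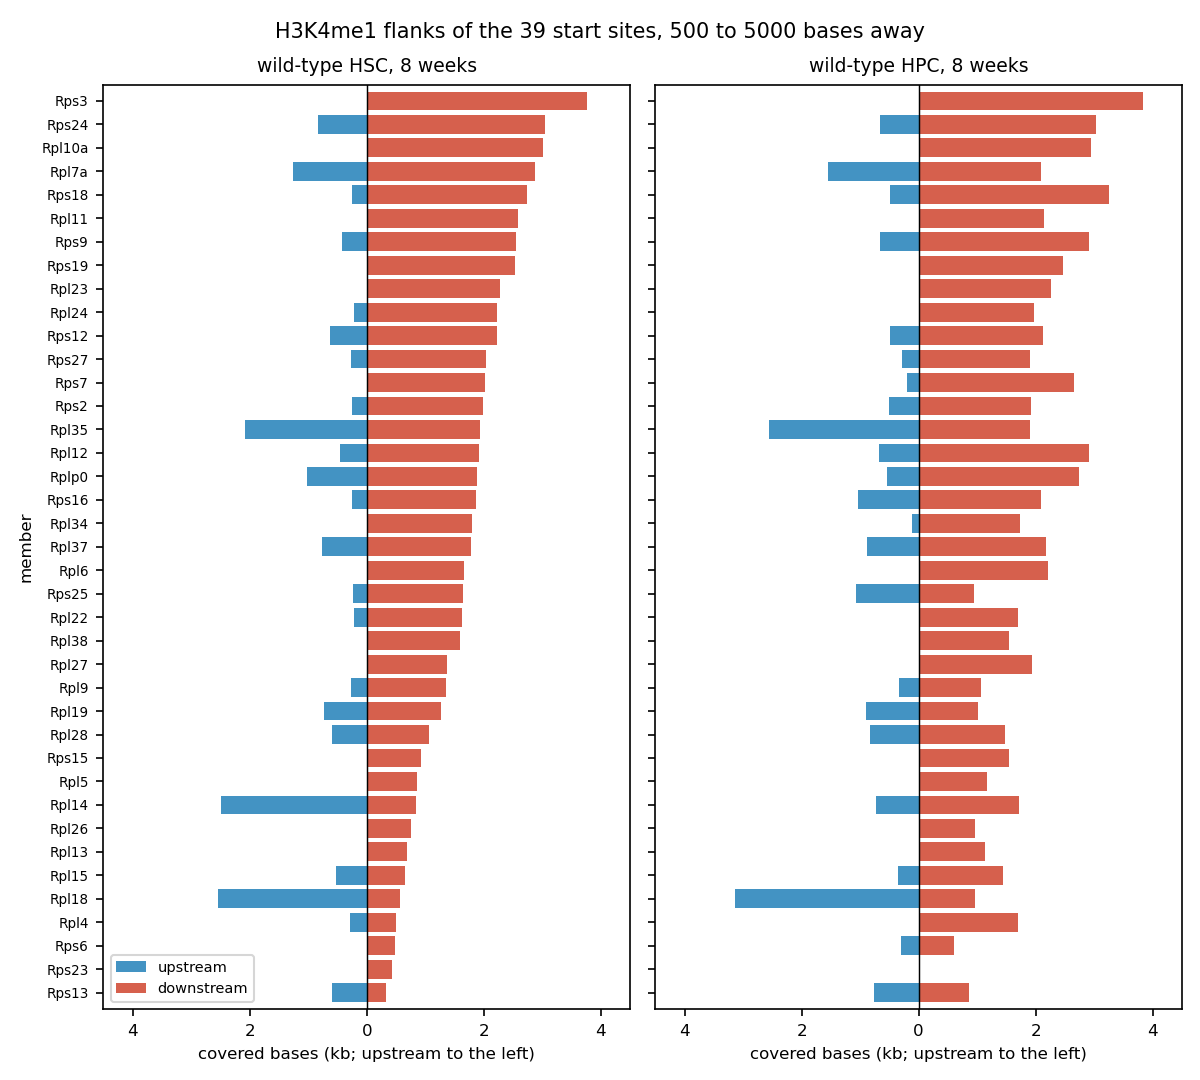
H3K4me1-covered bases (kb) from 500 to 5000 bases upstream (blue, to the left) and downstream (red, to the right) of the start of each of 39 members (rows), in wild-type HSCs and HPCs of 8 weeks. The downstream bar is the longer one in 35 of 39 members in either cell type, and Rpl18 and Rpl35 are exceptions in both.

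The order of the members by flank length was largely kept from list to list. Spearman's rho between any 2 of the 10 lists ran from 0.56 to 0.92 over the 39 members, while the rho between the H3K27ac widths of HSCs at 16 weeks and the H3K4me1 flanks of HSCs at 8 weeks was −0.07 to 0.07 over 12 pairs of lists. Those marks come from mice of different ages, and the flanks of 16 weeks were not compared with the widths in this way. Rps3, a 40S head protein at the messenger RNA entry channel, had 3272 to 4165 covered bases in the 10 lists, almost all downstream. Rps24 had 3307 to 4746 bases with both sides covered, although its H3K27ac region was among the 3 narrowest.

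Rps23 was at the other extreme. It had 0 flank bases in 6 of 10 lists (all 3 HPC lists and 3 of the 4 lists of 16 weeks) and 426, 1098 and 315 bases in wild-type, heterozygous and knockout HSCs of 8 weeks. The same gene had an H3K27ac region of 999 to 1706 bases in every H3K27ac list. Rps6 (346 to 1632 bases) and Rpl26 (156 to 1714 bases) also had short flanks, and Rpl13, at 0 bases in wild-type HSCs of 16 weeks given PBS, was the only other member at 0 in any list.

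By role, the 5S particle pair differed: Rpl11 had 1535 to 3049 covered bases over the 10 lists and Rpl5 263 to 1623. In the stalk Rplp0 had 1746 to 4740 and Rpl12 1084 to 4173 bases. At the tunnel exit Rpl35 (1578 to 5436) was far longer than Rpl19 (728 to 2706) and Rpl26. In the 40S head Rps18 (1819 to 4490) and Rps19 (2083 to 3683) were long and Rps15 (535 to 3044) and Rps25 (453 to 3073) varied. Median flanks were 1919 bases for 60S and 2244 bases for 40S members in wild-type HSCs of 8 weeks. The members whose flanks followed the members' median most closely over the 10 lists were Rpl24 (Pearson's r 0.97), Rpl37 (0.97) and Rps25 (0.93).

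**Figure D4:**
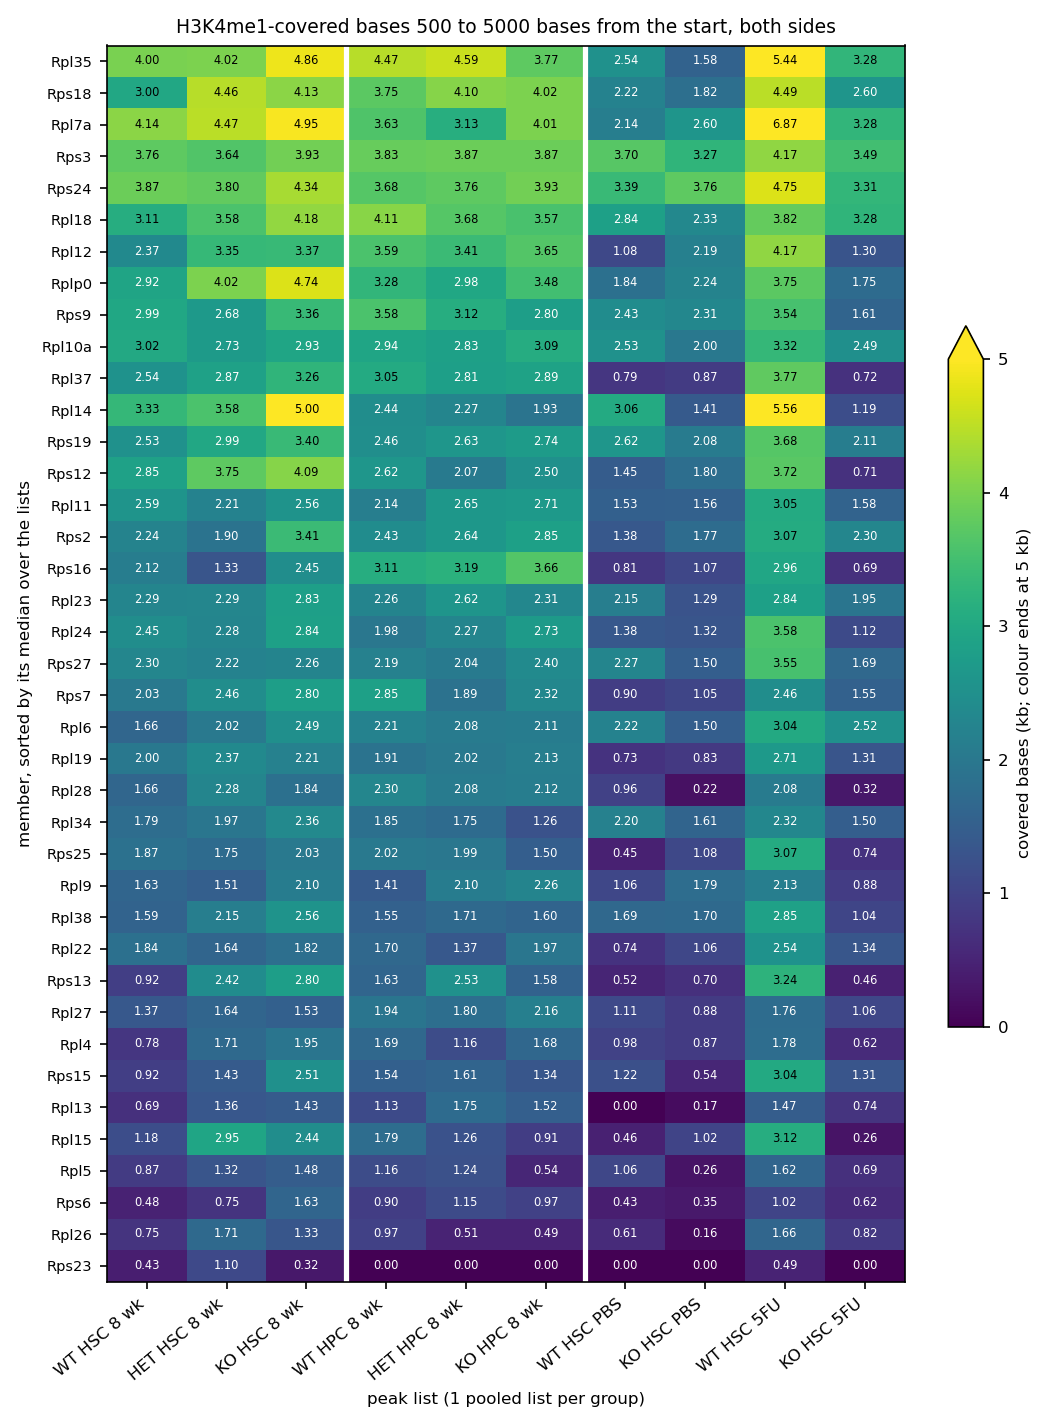
H3K4me1-covered bases from 500 to 5000 bases on either side of the start (kb, colour and printed value) for 39 members (rows, sorted by their median) in 10 pooled lists (columns; white lines part HSCs and HPCs of 8 weeks from HSCs of 16 weeks). Rps23 has 6 values of 0, and the wild-type 5FU column is the highest of the 4 lists of 16 weeks for all 39 members.

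At 8 weeks the knockout HSC list had longer flanks than the wild-type list at most members and at 85.4% of genes. Members were measured where 1 of the lists covered 500 bases or more. Of 38 such members, 34 were longer in the knockout, with a median log2 ratio of 0.34 (500 bases added to both lengths) against 0.35 over 10387 genes, and 19 members lay above that gene median. The members' median went from 2183 to 2679.5 bases. At least 1.5-fold longer were 7 members, where 29.6% of genes were, and none was at least 1.5-fold shorter (1.43% of genes). The 7 were Rps13 (921 to 2800 bases), Rps6 (478 to 1632), Rps15 (920 to 2506), Rpl4 (782 to 1949), Rpl15 (1175 to 2443), Rpl13 (694 to 1430) and Rplp0 (2916 to 4740). The knockout list covered 113 Mb in all and the wild-type list 86.1 Mb, and with both limited to equal covered bases 26 of 38 members were longer in the knockout.

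The heterozygous HSC list stood between these. It was longer than the wild type at 27 of 39 members (median log2 ratio 0.19, gene median 0.19, 19 members above it), with 6 members at least 1.5-fold longer (17.5% of genes) and none shorter by that much (2.78% of genes). Rpl15 went from 1175 to 2948 bases and Rps13 from 921 to 2422, while Rps16 went from 2122 to 1328. Limited to equal covered bases, 19 of 39 members were longer. The 2 comparisons share the wild-type list.

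In HPCs of 8 weeks the genotypes were nearly level. The knockout was longer at 21 of 38 members (median log2 ratio 0.02, gene median 0.00), none was at least 1.5-fold longer (7.91% of genes) and 2 were shorter (8.32% of genes): Rpl15 with 1786 and 914 bases and Rpl5 with 1163 and 540. With flanks read only to 2500 bases 12 of 38 were longer. The heterozygous list was longer at 18 of 38 members (median log2 ratio −0.03, gene median −0.03), with none past 1.5-fold in either direction (6.3% of genes longer and 8.68% shorter). Rps13 had the largest gain there, from 1633 to 2533 bases.

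Between the cell types the members' medians went the same way as those of all genes. In the wild type, however, a smaller share of members than of genes differed by 1.5-fold. Of 20 other cytosolic ribosomal protein genes, 7 were at least 1.5-fold longer in wild-type HPCs (median log2 ratio 0.40). In the wild type 24 of 38 members had longer flanks in HPCs (median log2 ratio 0.15, gene median 0.20, 18 members above it), 2 by at least 1.5-fold (22.1% of genes), namely Rpl4 (782 to 1691 bases) and Rps13 (921 to 1633), and none shorter by that much (7.26% of genes). In the knockout 10 of 38 had longer flanks in HPCs (median −0.21, gene median −0.15, 15 members above it). There 8 members were at least 1.5-fold shorter in HPCs (21.0% of genes), with Rpl14 the farthest at 5001 and 1933 bases, and none longer by that much (7.23% of genes). The wild-type direction changed with the sizes of the lists: limited to equal covered bases 17 of 38 were longer in HPCs.

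At 16 weeks with PBS the knockout HSC list was longer at 17 of 36 members (median log2 ratio −0.05, gene median −0.13, 20 members above it). At least 1.5-fold longer were 3 members (6.57% of genes), Rpl12 (1084 to 2186 bases), Rps25 (453 to 1079) and Rpl15 (459 to 1022), and 5 were shorter (17.4% of genes), among them Rpl5 (1060 to 263), Rpl28 (965 to 223) and Rpl14 (3065 to 1407). The 8-week difference between these genotypes was not seen as a common direction in these lists of 16 weeks, and the difference between the ages was not tested. The lists differ in strength. Peaks with a −log10 q of at least 5 made up 1.01% (wild type) and 1.04% (knockout) here, against 57.1% and 62.4% at 8 weeks. With that minimum no member could be measured in this comparison, so a lack of difference cannot be read from it.

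The wild-type 5FU list differed from the other 3 lists of 16 weeks at nearly every gene. Against the wild-type PBS list 38 of 38 members were longer, with a median log2 ratio of 0.84 (gene median 0.89, 17 members above it), and 26 by at least 1.5-fold (73.8% of genes), none shorter by that much (0.0301% of genes). The members' median went from 1378 to 3071 bases, with Rpl15 from 459 to 3122, Rps25 from 453 to 3073 and Rps3, already long, from 3703 to 4165. Against the same list the knockout 5FU list was longer at 0 of 38 members, 27 were at least 1.5-fold shorter (80.5% of genes) and none longer (0.0201% of genes), with a median log2 ratio of −0.83 (gene median −1.01, 26 members above it). These members' counts are at or near the shares of all genes. The wild-type 5FU list covered 116 Mb and the other 3 lists 44.2 to 54.0 Mb, and it alone held libraries with a second title prefix, so treatment and libraries cannot be told apart. Limited to equal covered bases, 24 of 35 members were longer after 5FU in the wild type and 18 of 36 longer in the knockout than in the wild type after 5FU.

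In the knockout 5FU against PBS gave 21 of 37 members longer (median log2 ratio 0.08, gene median 0.04, 19 members above it). Of these, 6 were at least 1.5-fold longer (12.4% of genes), among them Rpl26 (156 to 822 bases), Rpl13 (171 to 744) and Rpl35 (1578 to 3283), and 3 were shorter (10.4% of genes): Rpl15 (1022 to 261), Rps12 (1800 to 706) and Rpl9 (1794 to 880). Members past 1.5-fold thus went both ways.

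**Figure D5:**
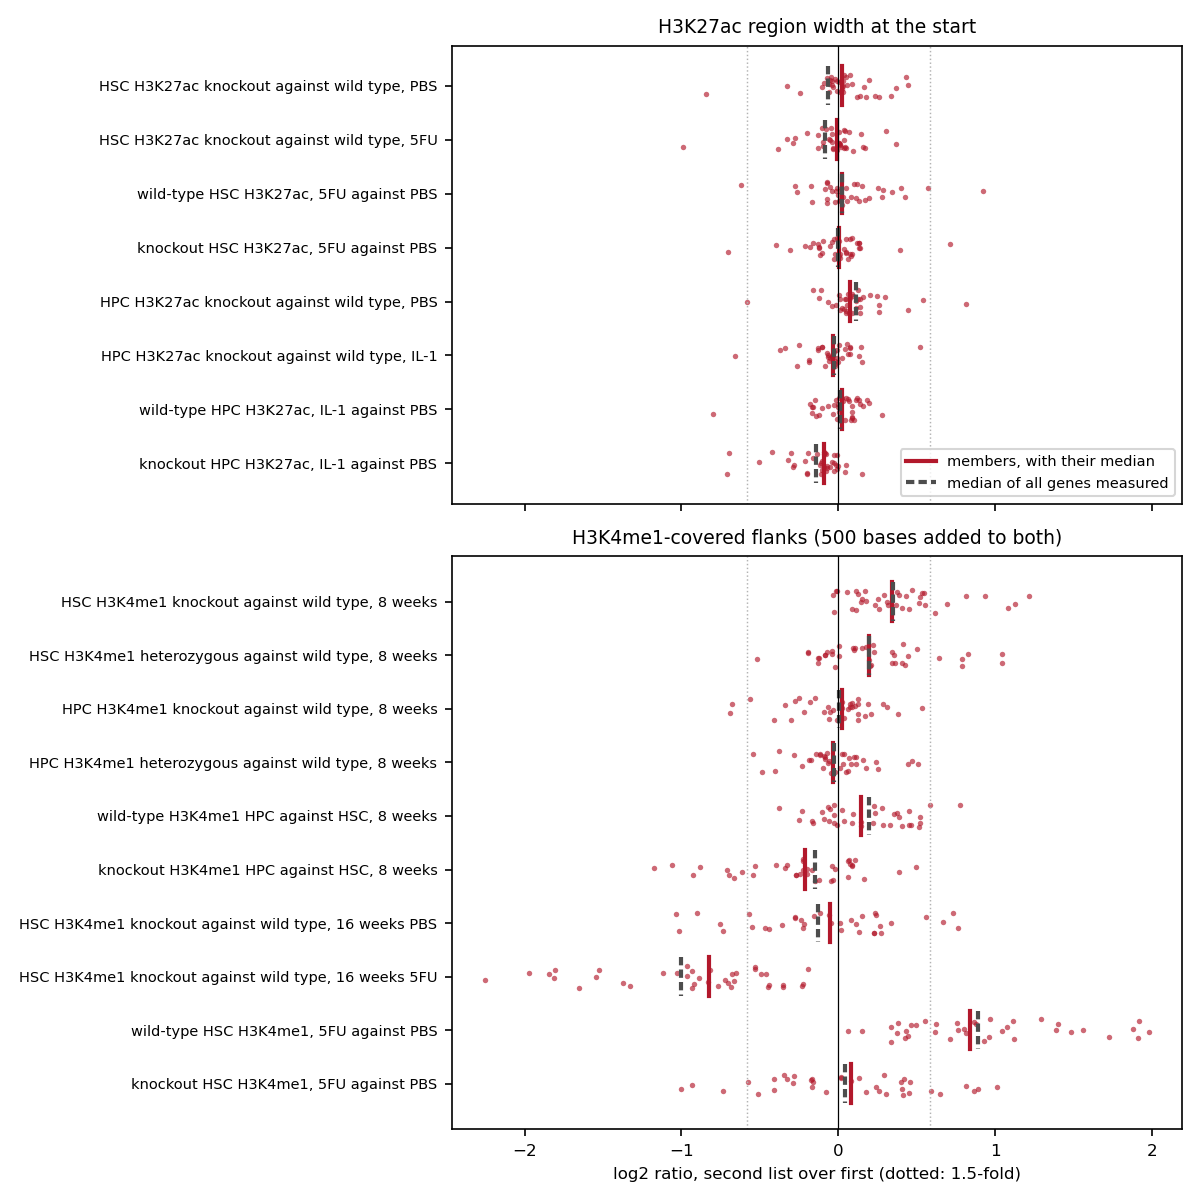
Log2 ratio of each member (red points; red bar, their median) in 8 comparisons of the H3K27ac width (above) and 10 comparisons of the H3K4me1 flank (below), with the median of all genes measured (dashed grey bar) and 1.5-fold (dotted lines). The members' median stays close to that of all genes (the gap is widest for knockout against wild type after 5FU, −0.83 and −1.01), the 2 H3K4me1 comparisons with the wild-type 5FU list lie farthest from 0, and widths spread less than flanks.

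Both marks were listed in the HSCs of 16 weeks, which places them against each other. In wild-type HSCs given PBS, 37 members had a downstream H3K4me1 base. The first lay a median of 174 bases beyond the end of the H3K27ac region. The distance was 231 bases in the knockout given PBS and 272.5 bases in the knockout given 5FU. In wild-type HSCs given PBS, 24 of 39 members had no base under both marks. The median share of the H3K27ac width with H3K4me1 was 0% there, for members and for always marked genes. In the wild-type 5FU list the marks overlapped by a median of 183 bases (a distance of −183). A median of 20.3% of the H3K27ac width carried H3K4me1 in that list, against 19.3% in always marked genes. Always marked genes had distances of 128, 218, 194 and −119 bases in the wild-type PBS, knockout PBS, knockout 5FU and wild-type 5FU lists.

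Other gene lists gave a scale for these values. In wild-type HSCs given PBS the median H3K27ac width was taken over the always marked genes of each list. It was 1616.5 bases over 20 other cytosolic ribosomal protein genes and 1766.5 over 12 other genes of TOP messenger RNAs (translation factors and related). It was 1630.5 over 18 ribosome biogenesis genes, 1301 over 23 proteasome genes and 1026.5 over 42 mitochondrial ribosomal protein genes. The H3K4me1 share downstream in wild-type HSCs of 8 weeks was 70.7%, 72.7%, 67.2%, 77.0% and 62.0% in those lists, against 79.3% in the members. In wild-type HPCs it was 60.7%, 59.7%, 70.6%, 75.7% and 57.4%, and again 79.3% in the members. In the knockout HSCs of 8 weeks the median log2 ratio over the wild type was 0.40 in the other ribosomal protein genes, 0.58 in ribosome biogenesis genes and 0.24 in mitochondrial ribosomal protein genes, around the members' 0.34.

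The 8 members without a start were read over the window of the gene and 5 kb on either side. H3K27ac covered 859 to 1304 bases at Rps20 over the 8 lists, 1346 to 2149 at Rpl3, 1474 to 2113 at Rpl7, 1546 to 2234 at Rpl32, 1582 to 1941 at Rplp1, 2159 to 2806 at Rpl30 and 1860 to 2687 at Rps14, the gene lost in the 5q deletion of myelodysplasia. Rpl8 differed between cell types, with 1577 to 2296 bases in the HSC lists and 2788 to 3816 bases in the HPC lists. H3K4me1 was present in the window of 44 of 47 members in all 10 lists (53.5% of protein-coding genes). The 3 exceptions were Rps23 (0 bases in 6 lists), Rpl13 (0 in wild-type HSCs of 16 weeks given PBS) and Rplp1 (0 in knockout HSCs given 5FU and 207 to 1610 in the others).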

How the data were processed

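Each of 18 groups (63 of 69 samples) had 1 peak list; the 6 input samples were not used. Novoalign, MACS2 and the builds mm10 and GRCm38 are named in the submitters' processing notes; versions, list filter and pooling method: not given in the sources used here. Lists as deposited by the authors hold each peak's fold enrichment (a ratio over background), its −log10 p and −log10 q, and its summit offset in bases. Sequencing depth is unknown from these files.

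Overlapping or touching peaks were merged into regions. The H3K27ac width is the length of regions touching 500 bases on either side of the start. The H3K4me1 flank is the covered length from 500 to 5000 bases on either side, compared after adding 500 bases where either list had at least 500. A difference of at least 1.5-fold was counted. Genes and starts came from RefSeq tables (GRCm38.p6), with 39 members matched to a promoter entry. Code ran in Python 3.11.15 with numpy 2.4.6, pandas 2.3.3 and scipy 1.17.1, and was tested on simulated peaks.

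With 1 list per group no test was made and no replicate values could be compared; each count stands beside that over all genes. The members and the gene lists were chosen with earlier results of these data known. Named members are the 3 largest and 3 smallest ratios of a comparison, the 3 widest and narrowest regions, members not always covered, fixed members by role and the 3 flank patterns most like the members' median. Members making up a small count were named after their values were seen. Alternatives were merging, a −log10 q minimum, equal list sizes, another window or reach, and subtracting the median of all genes.

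Of the other marker lists, T cell markers had a peak for 0 to 3 of 3 genes over the 18 lists and B cell markers for 2 or 3 of 3.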

Additional observations from a re-analysis of the deposited data

How the results depend on the processing

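Of 112 alternative values, 94 stayed within the binomial (Wilson) interval of the reported share or close to the reported count, 12 moved and 6 were labelled reversed. Reversed means that the interval excluded 50% and the alternative lay on the other side of 50%. Other shares that crossed 50% are counted among the 12 or the 94. The interval takes members as independent although they share their lists, so it is a yardstick and no measure of spread between libraries. The values below are shares of members wider or longer in the second list. Subtracting the median log2 ratio of all genes gave 84.6% (knockout against wild type, H3K27ac, HSC, PBS) and 71.8% (the same after 5FU), 38.5% in place of 82.1% (HPC, PBS) and 66.7% in place of 7.69% (knockout HPC, IL-1 against PBS). For H3K4me1 it gave 50% in place of 89.5% (knockout HSC, 8 weeks), 48.7% in place of 69.2% (heterozygous HSC), 68.4% in place of 0% (knockout against wild type after 5FU) and 44.7% in place of 100% (wild type, 5FU against PBS). By construction this setting reads members against all genes. Lists limited to equal covered bases gave 68.4%, 48.7%, 50% and 68.6% in those 4 H3K4me1 comparisons, and 44.7% in place of 63.2% for wild-type HPC against HSC. That last share was 81.6% with peaks of −log10 q of at least 5 and 78.9% with flanks to 2500 bases, a reach that also gave 31.6% in place of 55.3% for knockout HPCs. Merging regions up to 500 bases apart gave 74.4% in place of 59.0% for wild-type HSC H3K27ac, 5FU against PBS. The −log10 q minimum left 0 members, in place of 44, with H3K4me1 in all 10 windows, where 3 of the 4 lists of 16 weeks have 0.635% to 1.04% of peaks past it, and no measured member in 2 comparisons (knockout against wild type with PBS at 16 weeks, and knockout 5FU against PBS).

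No paired analysis was possible because each group has 1 list pooled over its libraries, which also leaves no replicate to leave out. Equal numbers of peaks moved no value. Peak edges depend on depth, which these lists do not give, so widths from lists of different size are not on 1 scale. Starts rest on 1 RefSeq entry a gene, and 8 members have none.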
